A study of Mus musculus with 9 samples.

Results

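The matrix metalloproteinase genes examined here are *Mmp2*, *Mmp3*, *Mmp8*, *Mmp9*, *Mmp10*, *Mmp12*, *Mmp13* and *Mmp14*, and the sites that belong to them are ChIP-seq peaks whose centre lay within 50 kb of the gene's start site in the mm9 mouse genome. By this rule 18 of the 25055 peaks in the 8 lists were assigned, and peaks that overlapped by at least 1 bp were joined, which gave 10 sites out of 14779 sites called at 6 h in the whole genome. The peaks came from mouse embryonic fibroblasts (MEFs) of genotype NfkB2-/-, which lack the NF-κB precursor p100 and its product p52 and had been immortalised by the 3T3 protocol, and every library, controls included, carried this deletion. Cells were left untreated (0 h) or treated with 10 ng/ml TNF for 6 h, and chromatin was precipitated with an antibody against p65, called RelA here, or against RelB. Each antibody and time point had 2 libraries, for 8 ChIP-seq libraries in all. The input was pooled from both replicates, according to the submitters, so all lists were called against a shared control. Wild-type cells were not analysed here, and ChIP-seq peaks give no RNA level by which the fibroblast label could be checked.

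Matrix metalloproteinases are secreted or membrane-anchored zinc enzymes that cut collagens, gelatin and other proteins of the extracellular matrix. *Mmp2* and *Mmp9* encode the gelatinases, *Mmp8* and *Mmp13* collagenases, *Mmp3* and *Mmp10* stromelysins, *Mmp12* the macrophage elastase, and *Mmp14* a membrane-anchored enzyme that activates the *Mmp2* product. Fibroblasts are a classical source of several of these enzymes. Inflammatory cytokines such as TNF are known to raise the expression of several members, and NF-κB and AP-1 elements have been described in the human *MMP9* promoter. NF-κB dimers of RelA or RelB with p50 recognise κB sites, which begin with G residues and end with C residues, and AP-1 binds the palindrome TGANTCA.

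The sites at *Mmp9* and *Mmp14* that were called in all 4 libraries carry the findings, and their central 201 bases are given here from the mm9 genome, plus strand, with matches to the κB consensus in capitals. They are the *Mmp9* site at chr2:164773049-164773249 and the *Mmp14* site at chr14:55036528-55036728.
Mmp9 site: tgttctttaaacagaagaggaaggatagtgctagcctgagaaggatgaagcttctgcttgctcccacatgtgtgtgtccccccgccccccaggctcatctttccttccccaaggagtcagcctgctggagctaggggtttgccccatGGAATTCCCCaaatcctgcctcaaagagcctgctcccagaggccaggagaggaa
Mmp14 site: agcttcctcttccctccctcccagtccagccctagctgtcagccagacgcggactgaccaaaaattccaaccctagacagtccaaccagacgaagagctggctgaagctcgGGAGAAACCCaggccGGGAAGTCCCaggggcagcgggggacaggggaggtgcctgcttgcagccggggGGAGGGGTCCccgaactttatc
The *Mmp9* window holds the κB match GGAATTCCCC, and the *Mmp14* window GGGAAGTCCC on the plus strand, together with GGGTTTCTCC and GGACCCCTCC on the minus strand, which the line above shows as their reverse complements.

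Before TNF, none of the 4 libraries had a peak within 50 kb of any of the 8 start sites. The 0 h lists were short, with 14 to 194 peaks each, and 1.16% of all 22380 protein-coding genes had a 0 h peak within that distance. Their weakest peaks had 13 or 14 ChIP reads in the fullest window, against 10 or 11 in the 6 h lists. Weaker binding before TNF was therefore not detectable. The nearest 0 h peak to a member lay 464 kb from the *Mmp2* start site, and the chromosome 9 members were at least 17000 kb from one. At 6 h, with 5192 to 7052 peaks per list, 5 of the 8 genes had a peak in at least 1 library, against 43.5% of all protein-coding genes. *Mmp9* and *Mmp14* (2 of 8) had a site called in all 4 libraries, against 9.82% of genes. The same 2 genes had a site in both RelA libraries, against 14.1% of genes, and *Mmp8* joined them with a site in both RelB libraries, 3 of 8 against 15% of genes. *Mmp2* and *Mmp12* each had a peak in RelA replicate 1 alone, so without that library 3 genes had a peak. *Mmp3*, *Mmp10* and *Mmp13* had none in any library. With 8 members these counts describe the genes and were not tested.

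**Figure D1:**
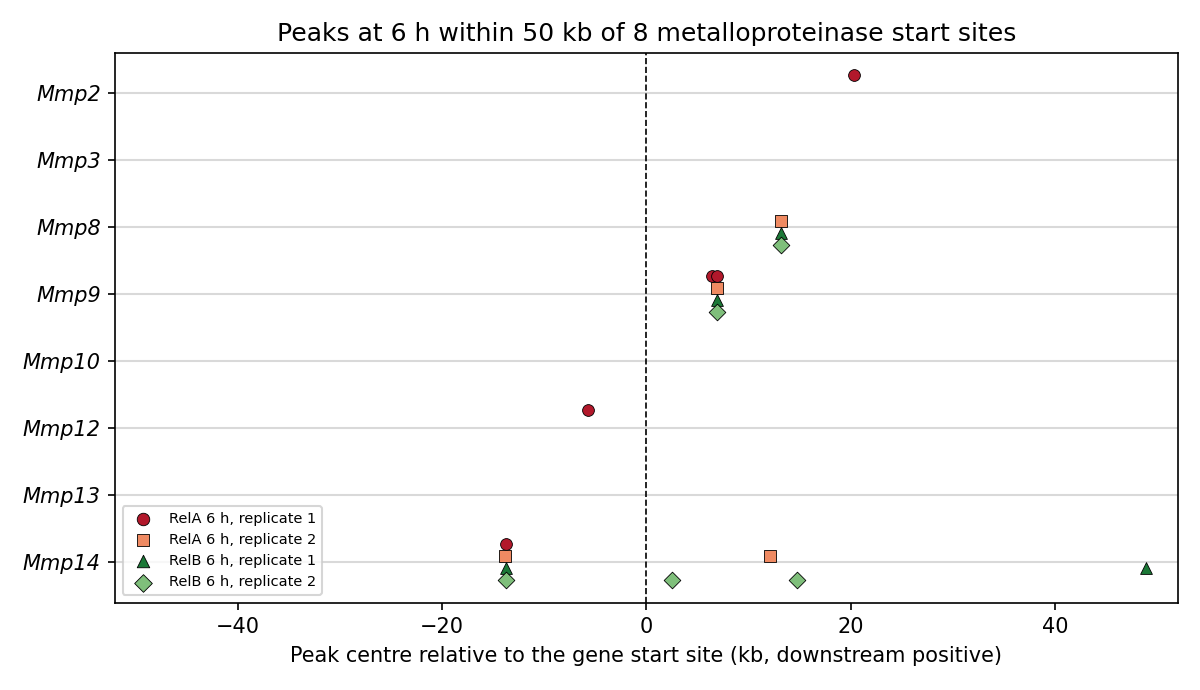
Position of each 6 h peak centre relative to the start site of its gene (x axis, kb, positive in the direction of transcription), with 1 row per gene and 1 symbol per library. Symbols of all 4 libraries line up at *Mmp9* and *Mmp14*, 3 line up at *Mmp8*, and the rows of *Mmp3*, *Mmp10* and *Mmp13* are empty.

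At *Mmp9*, the gelatinase gene on the plus strand of chromosome 2 (164766280 to 164781350), the main site spanned 164773025 to 164773273. The annotation has 2 transcript starts for this gene, and the site has a different position for each. It lay 6869 bp downstream of the outer start, at 164766280, in intron 1 of a 3-exon transcript annotated without its 3' end, and 570 bp upstream of the start of the 7.63 kb coding transcript that begins at 164773719. The κB match GGAATTCCCC (164773196 to 164773205) ended 514 bp, and an AP-1 match TGAGTCA (164773252 to 164773258) 461 bp, upstream of that inner start. Both matches lay inside the peak of every library. The 4 peak centres fell within 16 bp of each other, and 197 bp were common to all 4 peaks.
Peak strength was taken as the log2 fold of ChIP over input reads in the strongest window. It was 3.65 in RelA replicate 1, 3.45 in RelA replicate 2, 2.51 in RelB replicate 1 and 3.40 in RelB replicate 2. RelB replicate 1 was thus the lowest, and the other RelB library lay just below the RelA pair. The peaks held 45, 39, 32 and 32 ChIP reads in the same order, against 11, 11, 12 and 10 input reads. The exact Poisson 95% intervals of the ChIP reads, which cover counting error only, ran from 32.8 to 60.2 for the highest and from 21.9 to 45.2 for the lowest, so they overlapped. The fullest window of each peak held 28 reads in RelA replicate 1, 18 in RelA replicate 2, 19 in RelB replicate 1 and 20 in RelB replicate 2. On this measure the RelB libraries lay within the range of the RelA pair. Peak and window reads are unnormalized and total depth is unknown, so their order between libraries may reflect depth. In RelA replicate 1 alone a weaker peak, 164772565 to 164772825, lay 1024 bp upstream of the inner start, with a log2 fold of 1.78, 15 ChIP reads and 10 input reads. That fold was higher than those of only 3.3% of the peaks in the library.

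*Mmp14*, on the plus strand of chromosome 14 (55050441 to 55060095), had the most sites of the 8 genes, with 5 in its window. The site called in all 4 libraries spanned 55036414 to 55036843, in intergenic sequence 13812 bp upstream of the *Mmp14* start. Its nearest coding start was that of *Slc7a7*, an amino acid transporter gene, at 3772 bp, and *Mrpl52* was at 9117 bp, so the site is shared by several genes and the rule does not tell which of them it serves. The log2 fold was 3.68 in RelA replicate 1 and 3.27 in RelA replicate 2, and it was 3.42 in RelB replicate 1 and 3.57 in RelB replicate 2. Both RelB values lay between the RelA values. These folds were higher than those of 76.6 to 90.1% of the peaks in their own lists, and the mean over the 4 libraries, 3.49, was higher than at 67.2% of the 1860 sites called in all 4 libraries. The corresponding mean at the *Mmp9* site was 3.25, higher than at 53.9% of those sites, whose median was 3.19.
ChIP reads at the *Mmp14* site numbered 48 in RelA replicate 1, 25 in RelA replicate 2, 36 in RelB replicate 1 and 35 in RelB replicate 2, with 5 to 8 input reads. In these unnormalized counts the RelA libraries differed from each other by more than either differed from the RelB libraries. A stretch of 180 bp was common to the 4 peaks, and it held all 3 κB matches. Of these, GGGAAGTCCC lay between the other pair, and GGGTTTCTCC was the nearest to the centre of the site.
The other 4 sites of *Mmp14* were each called in 1 library. They lay 2493 bp downstream of the start in intron 1 (RelB replicate 2, log2 fold 2.98, 14 ChIP reads), 12117 bp downstream (RelA replicate 2, 2.62, 13 reads), 14699 bp downstream (RelB replicate 2, 2.45, 15 reads) and 48869 bp downstream (RelB replicate 1, 2.34, 17 reads). The last was the outermost peak inside the 50 kb limit, and its nearest coding start was that of *Rem2*, at 4373 bp. None of these 4 peaks was called in a second library of either antibody.

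**Figure D2:**
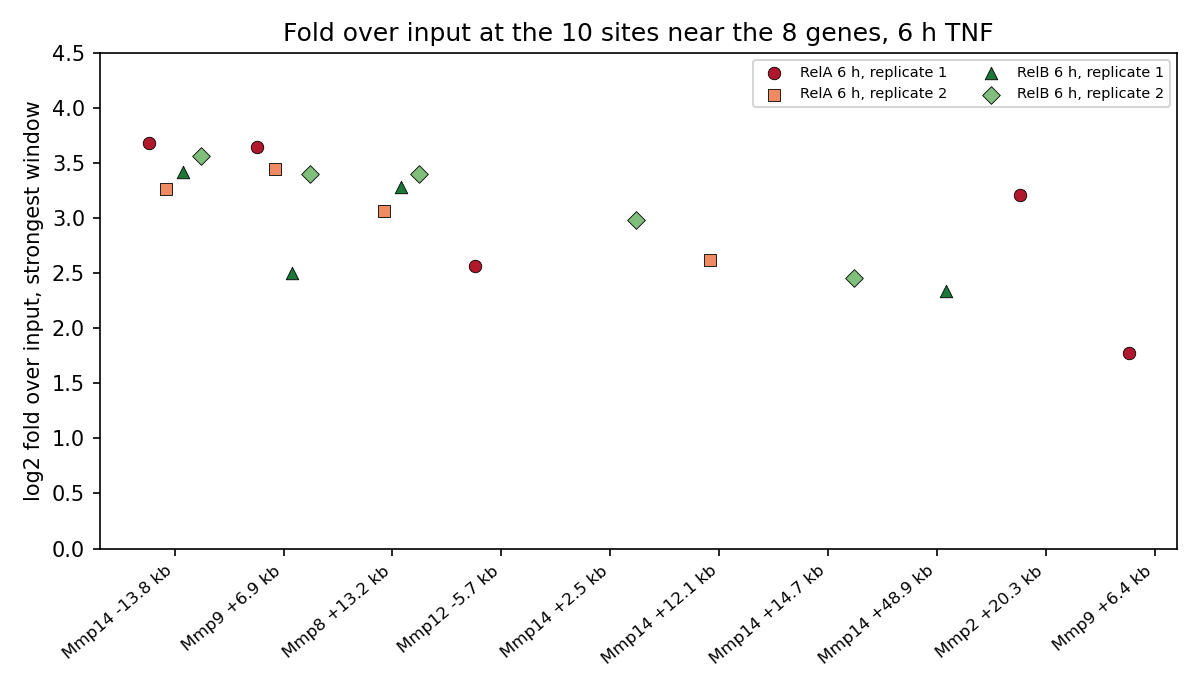
Log2 fold over input (y axis, strongest window of the peak) at each of the 10 sites (x axis, gene and distance of the site centre from the gene start in kb), 1 symbol per library that called it. The sites of *Mmp14*, *Mmp9* and *Mmp8* at the left have 3 or 4 symbols, between 2.51 and 3.68, and the 7 sites to their right have 1 symbol each.

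The site assigned to *Mmp8*, a collagenase gene best known from neutrophils, spanned 7571450 to 7571832 on chromosome 9. It lay 13212 bp downstream of the *Mmp8* start and beyond the end of that gene (7558429 to 7568486). Its nearest start was that of the neighbouring metalloproteinase gene *Mmp27*, which begins at 7571396, so the site centre was 245 bp into *Mmp27*, in intron 1. The log2 fold was 3.29 in RelB replicate 1, 3.40 in RelB replicate 2 and 3.06 in RelA replicate 2, and RelA replicate 1 had no peak. The peaks held 17, 31 and 21 ChIP reads in that order, against 6, 10 and 6 input reads. The RelA call was the least certain, at a false discovery rate (FDR) of 0.0484, against 2.9e-04 and 1.7e-05 in the RelB libraries. The call in RelA replicate 2 did not pass an FDR of 0.01, and the site then stood as one called by the RelB antibody alone.

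**Figure D3:**
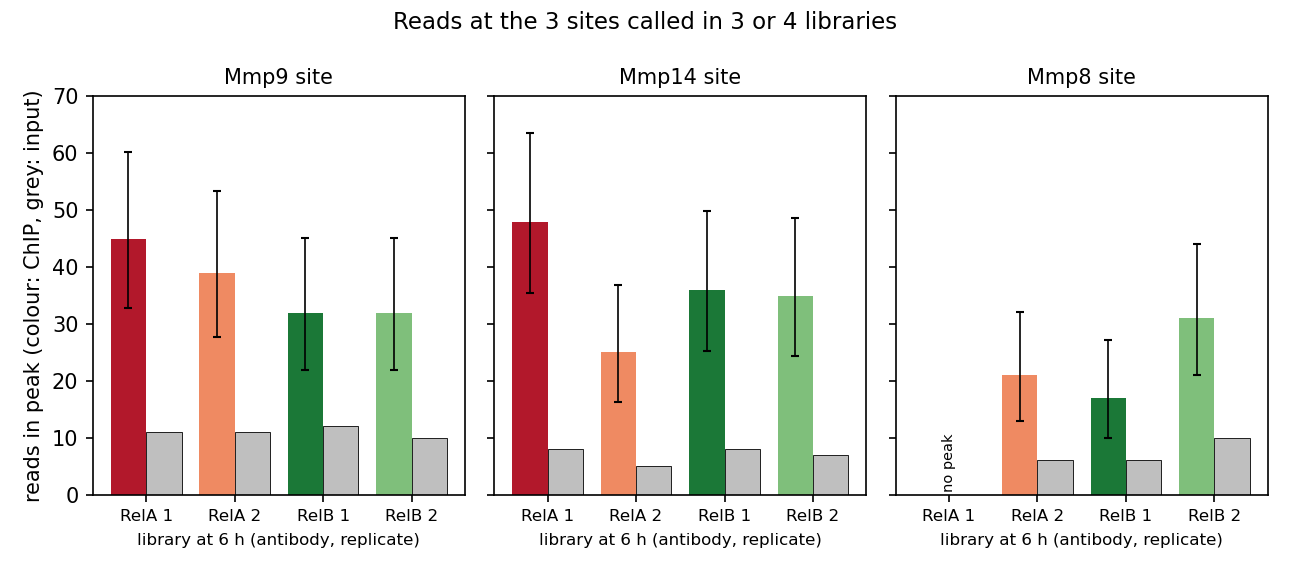
Reads within the peak (y axis) at the 3 sites called in 3 or 4 libraries, with ChIP reads as coloured bars, their exact Poisson 95% intervals as error bars, and input reads as grey bars. ChIP reads lie between 17 and 48 and input reads between 5 and 12, and RelA replicate 1 has no peak at the *Mmp8* site.

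*Mmp12* and *Mmp2* were each reached by a single peak of RelA replicate 1. The *Mmp12* peak, 7338448 to 7338922 on chromosome 9, lay 5696 bp upstream of the outer start of this elastase gene, and 8689 bp upstream of the inner start at 7347374. Its log2 fold was 2.57 at an FDR of 0.0104, with 25 ChIP reads against 12 input reads. The peak also lay within 50 kb of the *Mmp1b* start, at 49362 bp. It held GGAATTCCCC (7338774 to 7338783), the same 10 letters as the *Mmp9* site, and these 2 were the only Mmp sites that shared a κB match within 100 bp of the centre. An AP-1 match TGACTCA (7338848 to 7338854) lay inside the peak as well. The *Mmp2* peak, 95371496 to 95371524 on chromosome 8, lay 20283 bp downstream of the start in intron 11 of 13 exons, nearer to the *Lpcat2* start (7739 bp). Its log2 fold was 3.21 at an FDR of 0.00657, from 14 ChIP reads and 5 input reads, and it held GGAACACCCC (95371505 to 95371514). A second peak of the same library lay just outside the *Mmp2* limit, at 54156 bp, with a log2 fold of 2.68 and 15 ChIP reads, and one near *Mmp9* was outside at 59207 bp, with 2.09 and 12 reads.
In all, 7 of the 10 Mmp sites were called in 1 library, 3 of them in RelA replicate 1, 1 in RelA replicate 2, 1 in RelB replicate 1 and 2 in RelB replicate 2. They had 13 to 25 ChIP reads and log2 folds from 1.78 to 3.21. Such sites are common in these lists: 67.9% of all sites at 6 h were called in 1 library, and 12.6% in all 4, against 2 of 10 here.

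The chromosome 9 cluster holds 5 of the 8 genes, *Mmp13*, *Mmp12*, *Mmp3*, *Mmp10* and *Mmp8*, in that order, among 10 metalloproteinase genes in all. Over the 519.573 kb from 50 kb before the first start to 50 kb beyond the last, 5 sites were called, and none of them was called in all 4 libraries. The middle of the cluster was empty: no library had a peak between the *Mmp12* peak and the *Mmp8* and *Mmp27* site. The stromelysin genes *Mmp3* and *Mmp10* lie in this gap, and the closest peak to *Mmp10* was that of the *Mmp8* site, at 69243 bp. *Mmp13* lay 66171 bp from the *Mmp12* peak, which was the nearest to *Mmp3* also, at 107137 bp. No site was therefore shared by members within 50 kb. The lists give no reads where no peak was called, and the weakest peaks in the 6 h lists had 10 or 11 ChIP reads in their fullest window, so weaker binding at these genes was not detectable. At the far end, near *Mmp7*, 3 libraries had neighbouring peaks that did not overlap and so counted as 3 sites, with log2 folds of 2.14 in RelB replicate 1, 1.97 in RelA replicate 1 and 1.78 in RelA replicate 2. *Mmp7* is named here after its values were seen.

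**Figure D4:**
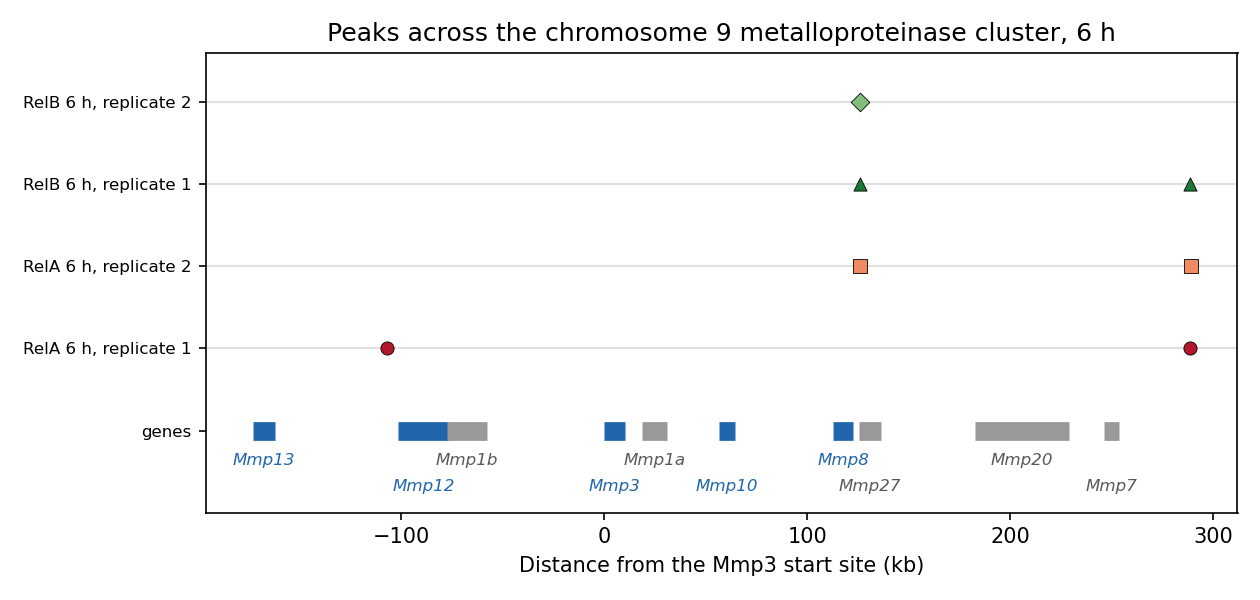
The chromosome 9 cluster, with genes as blocks (the 5 members in blue, other metalloproteinases in grey) and 6 h peaks as symbols in 1 row per library, against distance from the *Mmp3* start (x axis, kb). The stretch that holds *Mmp3*, *Mmp1a* and *Mmp10* has no symbol in any row.

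Sequence at the gene starts was described next, from 250 bases before to 50 bases after each start, on both strands. The AP-1 letters TGANTCA were found at *Mmp3* (TGAGTCA, 46 bases before the start), *Mmp10* (TGAGTCA, 73 bases before) and *Mmp13* (TGACTCA, 35 bases before), 3 of 8 members, against 6.93% of all 22380 protein-coding starts. These 3 are the genes with no peak within 50 kb. However, *Mmp9* and *Mmp12*, which had peaks, also had TGAGTCA at their inner starts, at 69 and 44 bases before the start. The share of all genes covers outer starts only, so these inner matches have no share to be set against. A κB match was found at 1 of 8 members, the outer start of *Mmp12* (GGAGGCCCCC, 113 bases before it), against 27.8% of all starts, and no peak was called there. *Mmp2*, *Mmp8* and *Mmp14* had neither motif in this window.
Within 100 bp of the site centre, the κB consensus was found at 8 of the 10 Mmp sites, among them both sites called in all 4 libraries. Of all sites at 6 h, 44.3% held a match in a window of this length, as did 73.9% of the sites called in all 4 libraries, and 12.1% of windows 1000 bp to either side. The AP-1 letters lay within 100 bp of the centre at 1 of the 10 Mmp sites, against 13.5% of all sites, and within 250 bp at 4, against 25.4%. These are matches of letters, which was all that was measured.

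RelA and RelB strength was compared at the 2 Mmp sites called in all 4 libraries. Both were part of a limma fit over all 1860 such sites, with each library centred on its median. The *Mmp9* site had a mean log2 fold of 3.55 for RelA and 2.95 for RelB, and after centring the difference, RelA minus RelB, was 0.68 (SE 0.32, 95% interval -0.03 to 1.39, limma, Benjamini-Hochberg adjusted p = 0.309). The *Mmp14* site had 3.48 and 3.49, and the centred difference was 0.06 (SE 0.28, 95% interval -0.54 to 0.67, limma, adjusted p = 0.932). Neither difference passed after adjustment, and the intervals allow a difference of more than 1 at *Mmp9* on the log2 scale. In the whole fit 11 sites were called, 0.591% of those tested. The size of the *Mmp9* difference depended on which RelB library was kept. It was 0.24 (95% interval -0.52 to 0.99) without RelB replicate 1 and 1.04 (95% interval 0.28 to 1.81, limma, adjusted p = 0.435) without RelB replicate 2. Measured by the highest reads of a window it was 0.20 (95% interval -0.30 to 0.70). Unadjusted intervals that left out 0 were also obtained at an FDR under 0.01 (0.10 to 1.32) and with the replicate number as a block (0.04 to 1.32), and neither passed after adjustment (limma, adjusted p = 0.2 and 0.231). With 2 libraries against 2, an exact permutation test of a single site cannot go below p = 0.333. Nothing in the labels says that the libraries came from separate cultures, so the spread between libraries may be technical. The *Mmp8* site was not part of the fit, since RelA replicate 1 had no peak there.

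**Figure D5:**
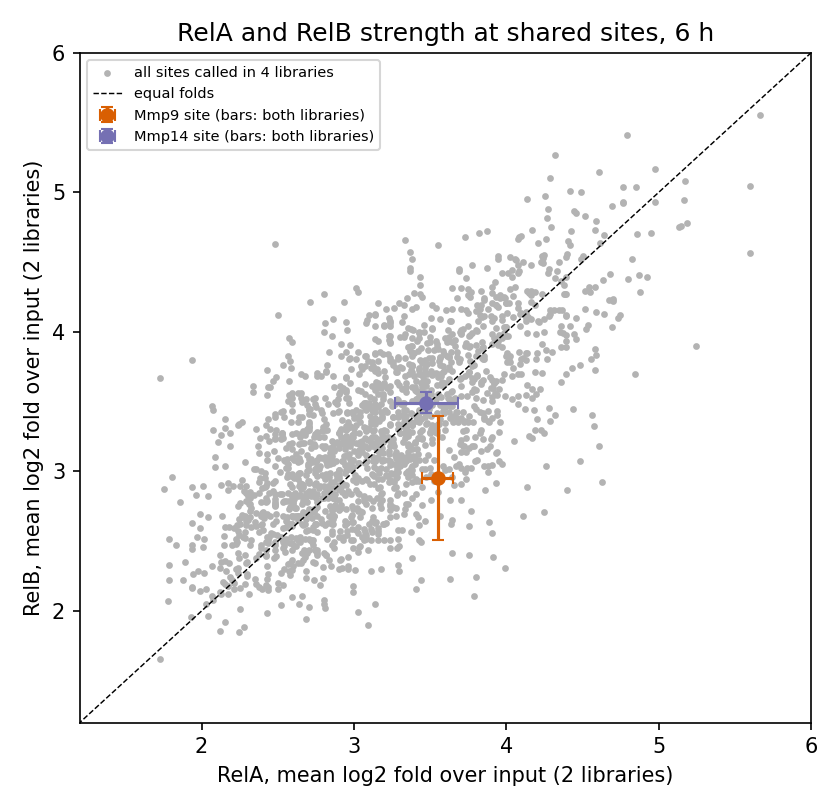
Mean log2 fold over input of the 2 RelA libraries (x axis) and the 2 RelB libraries (y axis) at the 1860 sites called in all 4 libraries at 6 h (grey), with the *Mmp9* and *Mmp14* sites in colour and bars that end at the 2 libraries of each antibody. The *Mmp14* site sits at 3.48 and 3.49 on the line of equal folds, and the *Mmp9* site below it at 3.55 and 2.95.

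The wider pathway was described with a list of 42 genes that act with these enzymes, all of which were annotated. Of these, 25 (59.5%) had a 6 h peak within 50 kb of their start, against 43.5% of all protein-coding genes. A site called in all 4 libraries lay near 5 (11.9%, against 9.82%) and one in both RelA libraries near 6 (14.3%, against 14.1%), shares close to those of all genes. A site in both RelB libraries lay near 11 (26.2%, against 15%). None of these shares was tested. None of the 15 other metalloproteinase genes had a site in all 4 libraries or in both RelA libraries, and at the shares of all genes (9.82% and 14.1%) few of 15 would. Both RelB libraries called a site near 2 of them, *Mmp27*, through the site shared with *Mmp8*, and *Mmp28*, which are named here after their values were seen. Among the 5 inhibitor genes, which encode proteins that hold metalloproteinases in check, all had a 6 h peak, and *Timp2* and *Reck* had a site in all 4 libraries, against 43.5% and 9.82% of all genes. A group of 5 genes is too small to read a share from. The *Timp2* site lay 7547 bp upstream of the start, with RelA log2 folds of 3.40 and 3.06 against RelB folds of 3.18 and 2.67. The *Reck* site lay 33512 bp downstream in an intron of the gene, with RelA folds of 2.75 and 2.73 against RelB folds of 2.64 and 2.78.
The 11 sheddase and aggrecanase genes encode enzymes that cut proteins from the cell surface or cut cartilage proteoglycan. Of these, 8 had a 6 h peak (72.7%, against 43.5% of all genes). A group of 11 genes is also too small to read a share from. A site in all 4 libraries lay near *Adam19* and *Adam17* (18.2%, against 9.82% of all genes). At *Adam17*, the gene of the TNF-converting enzyme, it lay 37640 bp downstream of the start within an intron, with RelA log2 folds of 3.30 and 2.83 against RelB folds of 3.39 and 3.60. The coding start nearest to this site was that of *Iah1*, at 19599 bp. At *Adam19* the site was intergenic, 28305 bp upstream of the start and nearer to that of *Gm12166* (26124 bp). RelA folds there were 3.12 and 3.23 against RelB folds of 3.60 and 4.11. The centred difference, RelA minus RelB, was -0.60 (95% interval -1.22 to 0.02, limma, adjusted p = 0.309). *Lcn2*, whose product binds the *Mmp9* protein, had a site 35911 bp upstream of its start with RelA folds of 2.56 and 2.48 against RelB folds of 1.85 and 2.23, in an intron of *Slc25a25*. The centred difference there was 0.56 (95% interval -0.04 to 1.16, limma, adjusted p = 0.325). The folds listed for these sites are uncentred, and 2 libraries per antibody are too few to read a preference from their order. How many of all sites have RelA and RelB folds that do not overlap was not counted. At none of the 5 sites did the difference pass the adjusted test (adjusted p = 0.309 to 0.86, limma). None of the 6 plasminogen system genes, which include activators of metalloproteinase precursors, had a site in all 4 libraries, against 9.82% of all genes. Before TNF, 1 gene of the list (2.38%, against 1.16% of all protein-coding genes) had a peak within 50 kb. It was *Thbs1*, also named after its value was seen.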

How the data were processed

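Binding was measured by ChIP-seq in 8 libraries of NfkB2-/- MEFs, and the peak list of each was used. The authors removed adapters with cutadapt, discarded bases under Q20, aligned reads with Bowtie to mm9 (unique hits only), and ran cisGenome on every library by itself (windows of 200 bases, at least 4 reads, FDR under 0.1, fold above 2) against the input. The deposited false discovery rate is a q-value of the best window. The deposited log2 fold is that of ChIP over scaled input reads in the strongest window, so it depends on a few input reads. The deposited counts are unnormalized ChIP and input reads per peak and per fullest window. No peak of the 25055 lay outside these thresholds. A list for the input was not used here.

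Reads in peaks were 120352 to 162105 per library at 6 h and 317 to 4677 at 0 h. Total depth is unknown, so no floor was given, and the Poisson intervals (95%) cover counting error only.

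Peaks that overlapped by at least 1 bp across the 8 lists were joined into sites. Starts were the 5' ends of genes in the first mouse GENCODE release, on mm9, and distances are from peak or site centres, cut to whole bases. Sequence came from the same genome (NCBIM37), and the κB consensus (2 G, a purine, 3 of any base, 2 pyrimidines, 2 C) and TGANTCA were searched on both strands. The sequence of the *Mmp8* site is not reported here. The 1860 sites called by all 4 of the 6 h libraries entered limma across the whole genome (lmFit, eBayes, Benjamini-Hochberg, adjusted p under 0.05). Members, gene lists and tests were chosen with earlier results of these data known. All members were named, as was every site called in both libraries of an antibody, and of the pathway list up to 8 genes with the highest mean fold at a site called in all 4 libraries, of which there were 5. Inner transcript starts and gene-start motifs were examined after the sites had been seen. The joining, assignment, motif and limma steps were tested on simulated data. Alternatives covered distance, FDR, fold, joining rule, equal peak numbers, start sites, normalization, the replicate block, motif window and leaving out each library.

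The software was R 4.3.3 with limma 3.58.1, and Python 3.11.15 with matplotlib 3.10.9, scipy 1.17.1, pandas 2.3.3 and numpy 2.4.6.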

Additional observations from a re-analysis of the deposited data

How the results depend on the processing

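The empty 0 h lists near the 8 genes stayed at 0 peaks under every alternative run. Counting within 10 kb left 7 peaks at 6 h, 4 sites, 1 site in all 4 libraries (also 1 in both RelA and 1 in both RelB libraries), 3 genes with a peak and 5 without, since the sites of *Mmp8* and *Mmp2* lie further out, as does the *Mmp14* site called in all 4 libraries. Within 100 kb, 1 gene was without a peak. An FDR under 0.01 left 6 sites. Without 1 library in turn, sites in the RelA libraries ranged from 2 to 5 and in the RelB libraries from 3 to 5, because a single library then stood for its antibody, genes with a peak from 3 to 5 and genes without from 3 to 5. A κB match was found at 5 of the 10 sites within 50 bp of the centre (27.7% of all sites) and at 10 within 250 bp (61.4%), and an AP-1 match at 0 within 50 bp (7.27%) and 4 within 250 bp (25.4%).

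The *Mmp9* difference stayed positive and uncalled in 11 alternatives, at 0.20 to 1.04 (limma adjusted p = 0.2 to 0.812). The *Mmp14* difference was near 0 and changed sign to -0.0188 without centring, -0.0864 without RelA replicate 1 and -0.00536 without RelB replicate 1, and ranged from -0.0864 to 0.28 without 1 library. The number of sites called in the whole genome, 11 in the reported fit, was 141 on window reads, 30 at an FDR under 0.01, 0 with centres within 500 bp (327 at an unadjusted p under 0.05), a rule added after seeing the data, and 0 to 31 without 1 library. It was 0 without RelA replicate 1 (301 at an unadjusted p under 0.05) or RelB replicate 2 (220), and 31 without RelA replicate 2. The causes were not tested. The count was 85 with the replicate number as a block. After centring, the deviations of same-numbered libraries were not correlated across sites (r = -0.00256 over 1860 sites). Centring removes any shift common to a library, so this value cannot tell whether same-numbered libraries were prepared together, and the labels do not say. The block changed the call of neither Mmp site. The 2 libraries per group and the unknown depth limit all of these values.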
